A study of Mus musculus with 10 samples.

Results

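The solute carrier genes were analysed in sorted mouse microglia from adult brain, from *in vitro* mixed glial cultures and from cultured brain slices. They were the gene symbols made of Slc, a family number, the letter a and a member number, with at least 10 UMIs (unique molecular identifiers, that is counted RNA molecules) in at least 2 of the 10 libraries. Of 271 such symbols, 9 were set aside by name, namely *Slc2a1*, *Slc2a3*, *Slc2a5*, *Slc7a2*, *Slc7a11*, *Slc11a1*, *Slc11a2*, *Slc30a1* and *Slc40a1*, and 92 of the other 262 were under the minimum. This left 170 of the 18281 genes listed, in 42 families on 20 chromosomes. *Slc12a5*, *Slc27a3* and *Slc6a9* were just inside the minimum, with 10, 11 and 13 UMIs in their second highest library, and *Slc16a9* and *Slc25a27* just outside it, with 8 each. The minimum was reached in 1 group only by 5 genes, among them *Slc5a10* (adult), *Slc7a13* and *Slc28a2* (both *in vitro*), which were included only through the group where they are high, so that their contrasts below follow from the minimum and are a description. *Slc6a13*, *Slc36a2*, *Slc39a12* and *Slc41a2* reached it in 2 groups each, and their contrasts with the groups under it are a description too. Adult microglia came from brains of adult C57BL/6 mice. *In vitro* microglia were collected from the medium of C57BL/6 mixed glial cultures, started from the cortices of neonatal pups, after 3 weeks. Slice microglia came from brain slices of C57BL/6 pups cut in the first days after birth and kept for 1 day, 1 week or 3 weeks. All were sorted as live CD11b high, CD45 intermediate cells. Each group had 2 libraries, described as biological replicates, and whether a library pools several animals is not given in the sources used here. Cultured cells came from neonates and the reference cells from adults, so the age of the donor and culture cannot be told apart in the 4 comparisons with adult.

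Solute carriers are membrane proteins that move small molecules and ions across the plasma membrane or the membranes of mitochondria, lysosomes and the Golgi apparatus. Some are uniporters or exchangers, and others couple uptake to the gradient of sodium or protons. In microglia and other macrophages they supply amino acids, glucose, nucleosides and vitamins, export lactate, and return what is digested in the lysosome, such as nucleosides, heme and dipeptides, to the cytosol. The Slc25 family holds the carriers of the inner mitochondrial membrane and is the largest here.

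Levels are given as CPM, a gene's share of the UMIs of a library on the standard scale of edgeR, after TMM scaling (an edgeR factor that corrects for differences in RNA composition), summed over all cells of the library. They are 3′ counts, and a level is a share of the RNA in these cells and not an amount per cell. Because the cells were summed here, fewer cells with a transcript were not told apart from fewer transcripts per cell. Fold changes are log2 values ± SE from the edgeR quasi-likelihood test of the 12155 genes that passed the count filter, of which 165 were solute carriers. The 5 not tested for low counts were *Slc15a2*, *Slc12a5*, *Slc27a3*, *Slc13a2* and *Slc22a23*. Adjusted p are Benjamini and Hochberg values over all 12155 genes, and a gene was called at an adjusted p under 0.05 with a fold change over 1.5. After removal of cells past the limits of the study on mitochondrial share, genes and UMIs, libraries held 61 to 3799 cells and 385373 to 39689540 UMIs, with the fewest at 1 week. The study also screened for outlier cells, which was not done here, and it reports fewer cells at 1 week, so this is not its own set of cells. The median cell held 3257 and 1858 UMIs in the adult libraries, 12858 and 13966 *in vitro*, and 5266 to 8335 in slices. No pair of libraries shared over 21 cell barcodes.

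All 8 microglia markers examined had UMIs in every library, at a summed 33126 to 34794 CPM in adult, 8950 to 10283 *in vitro* and 4647 to 18747 in slices. Cells in which neutrophil markers held over 2% of UMIs made up 12.9% and 10.8% of the slice 1 day libraries and 16.2% and 1.64% of the slice 1 week libraries, with 0 elsewhere. The 6 neutrophil markers summed to 7265 and 21550 CPM at 1 day and 42009 and 942 at 1 week, and to 1.02 to 7.25 CPM in the other 6 libraries. Monocyte markers summed to 148 and 356 CPM at 1 day and 908 and 0 at 1 week, and to at most 6.45 elsewhere. Neuron markers summed to 376 and 537 CPM at 1 week and to at most 40.9 elsewhere. Perivascular macrophage markers summed to 384 and 343 CPM *in vitro*, 4.83 and 3.61 in adult and 8.67 to 74.1 in slices. Of these 4 markers *Mrc1* made up nearly all of the *in vitro* sum, at 383 and 341 CPM, while *Cd163* was at 0.803 and 1.23, *Lyve1* at 0.707 and 0.309 and *Cd209f* at 0.0642 and 0.561 CPM. Oligodendrocyte precursor markers summed to 29.8 and 42.2 CPM at 3 weeks and 0.0732 and 0.129 in adult, of which *Cspg4* alone was at 29.2 and 40.7 CPM at 3 weeks and *Pdgfra*, *Olig1* and *Olig2* each at under 1 CPM. Oligodendrocyte markers summed to 89.5 and 46.2 at 3 weeks and 47.8 and 52.3 in adult. The part of monocytes, neurons, perivascular macrophages and oligodendrocyte lineage cells in the values that follow was not tested. In neutrophil and monocyte markers slice 1 week replicate 1 stood apart from replicate 2. Fewer solute carriers were called at 1 week against adult without it, in a fit that leaves 1 library of 61 cells in the group. The share of all genes called in that fit is not given. Erythroid markers summed to 1680.0 CPM in adult replicate 1 and 3324 in slice 1 day replicate 1 and to at most 1.03 elsewhere. The submitters gave adult replicate 1 and slice 3 weeks replicate 1 another study label than the other 8 libraries. The 65 solute carriers called between these groups had the same direction within each label, which follows from the lack of overlap between their 4 libraries and is no test of the label.

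The solute carriers together held 0.672% and 0.710% of all UMIs in adult, 0.466% and 0.455% *in vitro* and, in slices, 0.612% and 0.627% after 1 day, 0.477% and 0.532% after 1 week and 0.596% and 0.550% after 3 weeks. Both *in vitro* libraries were below every other library, and both adult libraries were above every other library. By mean level, 57 of the 170 genes were highest in adult, 28 *in vitro*, 29 at 1 day, 27 at 1 week and 29 at 3 weeks. By the same measure 50 were lowest *in vitro*, 37 in adult, 31 at 1 day, 37 at 1 week and 15 at 3 weeks. Classes were set by family number, after the usual substrate of the family, so single genes can carry something else, such as *Slc5a6*, a vitamin carrier counted among sugars, *Slc16a10*, counted among organic acids, and *Slc25a17*, a peroxisomal carrier counted as mitochondrial. The nucleoside carriers took 0.0342% and 0.0402% of UMIs in adult against 0.00781% to 0.0180% in the other libraries, and the carriers of vitamins, choline, organic ions and lipids 0.0595% and 0.0619% against 0.0191% to 0.0402%. The metal and heme carriers ranged only from 0.0589% to 0.0740%, and adult lay within that range. These shares were not tested, and a permutation of 2 libraries against 2 could give no two-sided p under 0.333.

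**Figure D1:**
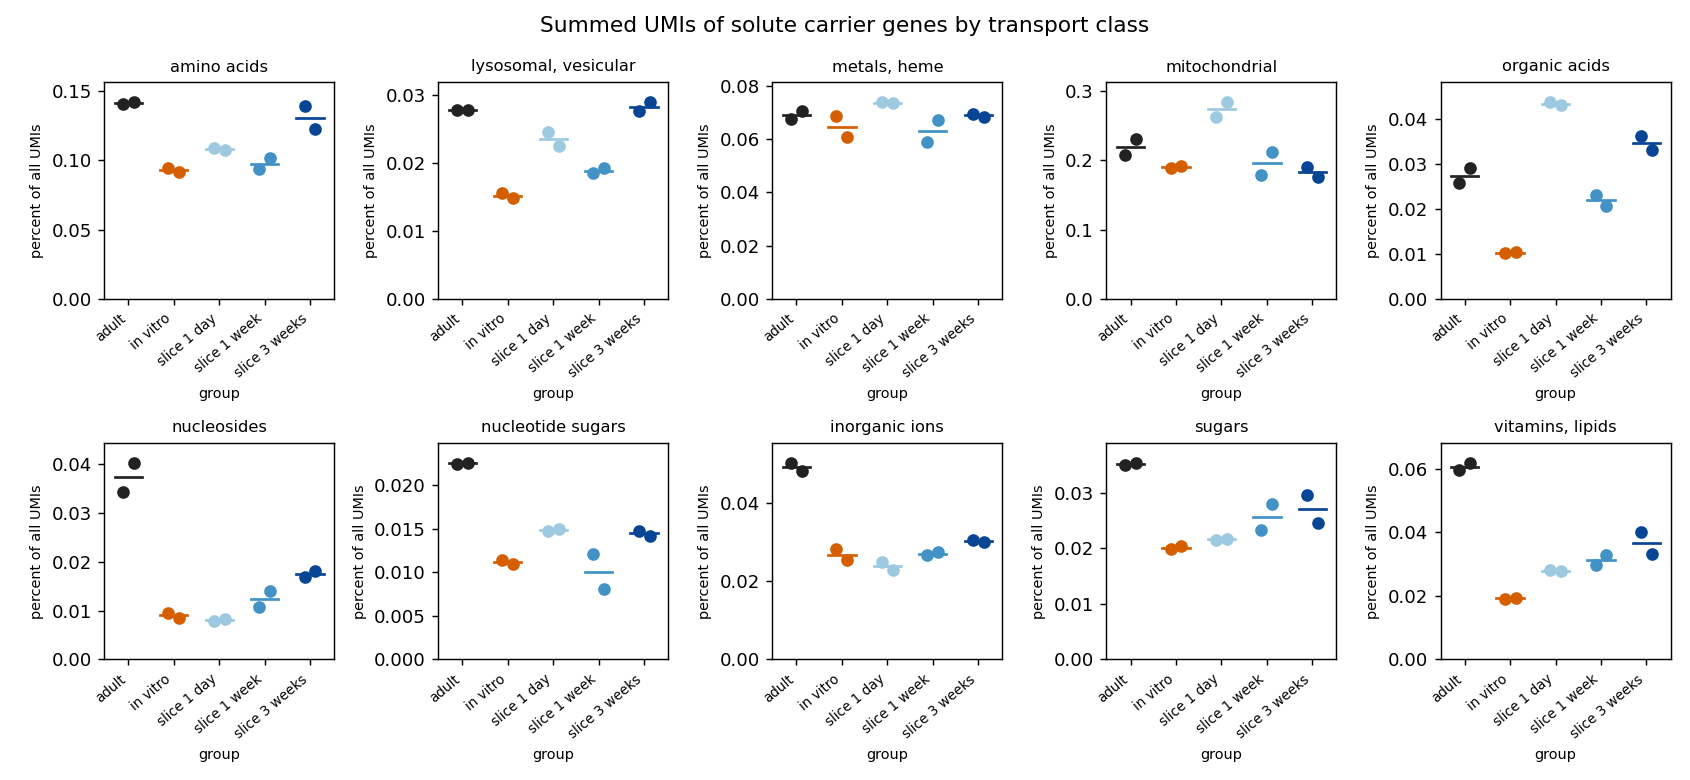
Percent of all UMIs (vertical axis, from 0) taken by the solute carriers of each transport class in each library, by group; points are libraries and bars the mean of 2. Adult libraries are the highest for nucleosides, nucleotide sugars, inorganic ions, sugars and vitamins and lipids, *in vitro* libraries the lowest for organic acids, and slice 1 day libraries the highest for mitochondrial carriers and organic acids.

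Against adult, 67 of the 165 tested solute carriers were lower *in vitro* (40.6%, where 28.5% of all genes were lower) and 32 were higher (19.4%, all genes 22.4%). At 1 day 48 were lower (29.1%, all genes 25.4%) and 33 higher (20.0%, all genes 24.9%). At 1 week 33 were lower (20.0%, all genes 13.6%) and 20 higher (12.1%, all genes 15.0%). At 3 weeks 30 were lower (18.2%, all genes 17.5%) and 35 higher (21.2%, all genes 18.0%), with 16 lower without adult replicate 1. Directly compared, 55 were lower *in vitro* than at 3 weeks in slices (33.3%, all genes 20.0%) and 23 were higher (13.9%, all genes 13.3%), with 36 lower without *in vitro* replicate 2. From 1 day to 3 weeks in slices 28 rose (17.0%, all genes 13.9%) and 15 fell (9.09%, all genes 12.8%). Fewer rose without either slice 1 day library. Fits that leave out a library hold only 1 in that group, and shares of all genes called are not given for them. The median log2 fold change of the solute carriers was −0.39 *in vitro* against adult, where that of all genes was −0.11, and −0.41 *in vitro* against slice 3 weeks, where that of all genes was −0.10. For slices against adult the medians were −0.12 at 1 day (all genes −0.06), −0.25 at 1 week (all genes −0.08) and −0.09 at 3 weeks (all genes −0.03), and from 1 day to 3 weeks it was 0.17 (all genes 0.05). These comparisons share libraries, and the slice 3 weeks balance turned with the scaling, since with library size alone 28 were higher and 43 lower. The same scaling gave 23 higher and 81 lower *in vitro* against adult. It also moved all genes, to a median log2 fold change against adult of −0.24 at 3 weeks and −0.42 *in vitro*. The share of all genes called under it is not given.

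**Figure D2:**
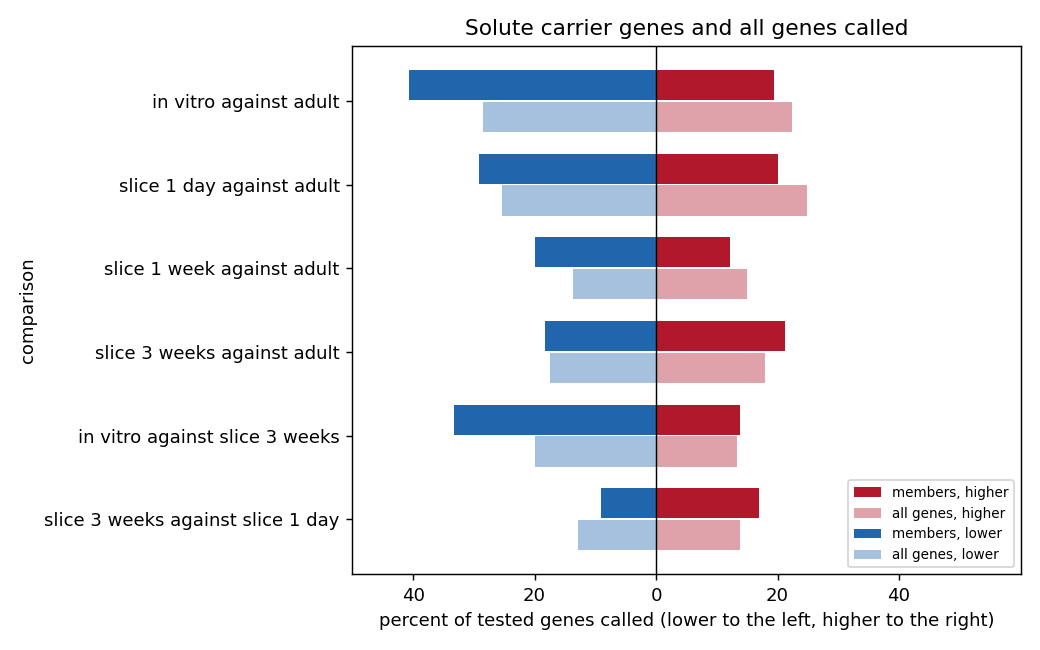
Percent of tested genes called lower (left) and higher (right) in each comparison, for the 165 tested solute carriers (dark) and all 12155 genes (light). For lower genes *in vitro* the dark bars are the longer, at 40.6% against 28.5% relative to adult and 33.3% against 20.0% relative to slice 3 weeks.

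**Figure D3:**
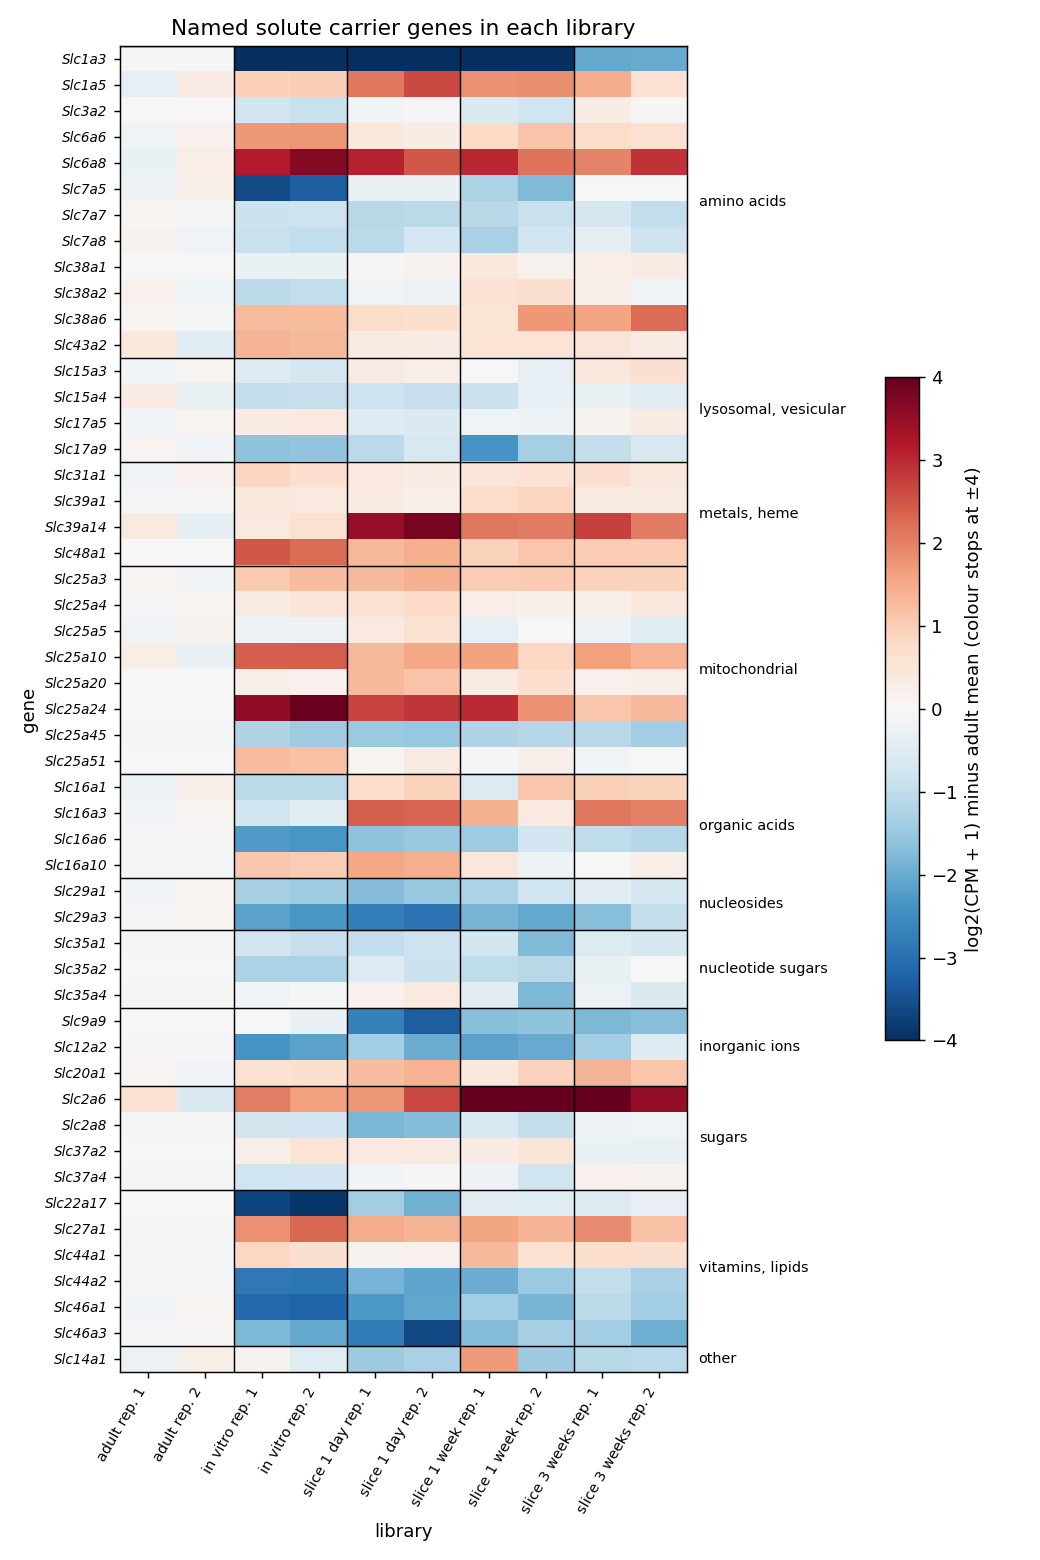
Level of 51 named solute carrier genes (rows, by transport class) in each library (columns), as log2(CPM + 1) minus the adult mean, with red above and blue below adult. *Slc6a8*, *Slc25a3* and *Slc27a1* are above adult in all 8 culture libraries, and *Slc1a3*, *Slc29a3* and *Slc46a1* are below it in all 8.

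Amino acid carriers were the largest class after the mitochondrial one, with 28 genes tested. *In vitro*, 12 were lower and 8 higher than in adult (all genes 28.5% and 22.4%), and 15 were lower and 5 higher than at 3 weeks in slices (all genes 20.0% and 13.3%). At 3 weeks against adult 5 were lower and 9 higher (all genes 17.5% and 18.0%). *Slc1a3* (chr15:8634124-8710764, minus strand), the glutamate transporter GLAST that is also abundant in astrocytes, was at 136 and 129 CPM in adult, 0.0642 and 0.0281 *in vitro* and, in slices, 5.24 and 1.24 after 1 day, 3.95 and 0 after 1 week and 31.2 and 32.1 after 3 weeks. The *in vitro* libraries held 2 and 1 UMIs against 1858 and 1002 in adult, a level lower by 2972-fold (95% counting interval 1016 to 14420.2). Slices at 3 weeks were below adult (−2.06 ± 0.30, adjusted p = 4.60e-04) and above slices at 1 day (3.62 ± 0.42, adjusted p = 3.19e-04), with no overlap of libraries. The 6 astrocyte markers summed to 13.4 and 0.902 CPM in adult, 5.75 and 7.21 *in vitro* and, in slices, 13.4 and 15.04 after 1 day, 20.8 and 30.7 after 1 week and 4.01 and 7.27 after 3 weeks. The part of astrocyte RNA in *Slc1a3* was not tested.

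In the heterodimers of CD98, *Slc3a2* encodes the heavy chain and *Slc7a5*, *Slc7a7* and *Slc7a8* light chains. *Slc7a5*, the LAT1 carrier of large neutral amino acids, was at 32.4 and 42.6 CPM in adult, 2.18 and 2.92 *in vitro* and, in slices, 30.9 and 30.7 after 1 day, 14.8 and 10.2 after 1 week and 36.7 and 36.9 after 3 weeks. Only the *in vitro* libraries were near 3 CPM, below adult (−3.86 ± 0.21, adjusted p = 2.25e-07) and below slices at 3 weeks (−3.84 ± 0.21, adjusted p = 8.71e-07), while slices at 3 weeks and adult gave −0.02 ± 0.18. *Slc3a2*, one of the most counted solute carriers, was at 497 and 503 CPM in adult, 293 and 266 *in vitro* and, in slices, 461 and 473 after 1 day, 338 and 287 after 1 week and 618 and 514 after 3 weeks, and fell *in vitro* in both comparisons (−0.84 ± 0.15, adjusted p = 8.29e-04 against adult, −1.02 ± 0.15, adjusted p = 5.60e-04 against slice 3 weeks). *Slc7a7*, the y+LAT1 exchanger of cationic and neutral amino acids, was at 129 and 117 CPM in adult, 67.9 and 69.2 *in vitro* and, in slices, 56.6 and 58.01 after 1 day, 56.3 and 66.5 after 1 week and 77.4 and 61.95 after 3 weeks. It was lower than adult *in vitro* (−0.85 ± 0.14), at 1 day (−1.11 ± 0.15) and at 3 weeks (−0.83 ± 0.14), with adjusted p of 5.59e-04, 1.43e-04 and 0.00131. *Slc7a8* (LAT2) was at 86.9 and 72.6 CPM in adult, 42.4 and 40.02 *in vitro* and 36.96 and 48.5 at 1 day, and its call at 3 weeks (−0.59 ± 0.20, adjusted p = 0.0368) was lost without either adult library (without replicate 1 −0.39, adjusted p = 0.27; without replicate 2 −0.71, adjusted p = 0.0523) or without slice 3 weeks replicate 2 (−0.30, adjusted p = 0.271).

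Some amino acid carriers rose in culture. *Slc6a8*, the creatine transporter, was at 1.54 and 2.70 CPM in adult, 26.4 and 37.7 *in vitro* and, in slices, 24.6 and 16.1 after 1 day, 23.7 and 12.8 after 1 week and 11.1 and 21.5 after 3 weeks, so that all 8 culture libraries were above both adult libraries. Its fold changes against adult were 3.98 ± 0.42 *in vitro*, 3.29 ± 0.44 at 1 day and 3.05 ± 0.42 at 3 weeks (adjusted p = 2.13e-05, 1.34e-04 and 3.44e-04). *Slc6a6*, the taurine transporter, was at 76.8 and 97.2 CPM in adult, 290.4 and 294 *in vitro* and, in slices, 116 and 107 after 1 day, 150.2 and 192 after 1 week and 145 and 134 after 3 weeks. It was higher *in vitro* than in adult (1.75 ± 0.17, adjusted p = 1.03e-05) and than in slices at 3 weeks (1.07 ± 0.16, adjusted p = 6.39e-04), and at 3 weeks its call against adult (0.68 ± 0.16, adjusted p = 0.00732) was lost without adult replicate 1 (0.58, adjusted p = 0.0523). *Slc1a5*, the ASCT2 exchanger that takes up glutamine, was at 3.15 and 5.67 CPM in adult, 9.15 and 9.35 *in vitro* and, in slices, 21.8 and 31.8 after 1 day, 17.8 and 17.9 after 1 week and 13.7 and 6.80 after 3 weeks and was highest at 1 day (2.67 ± 0.37, adjusted p = 1.91e-04 against adult). The *in vitro* call of *Slc1a5* (1.12 ± 0.36) was lost without adult replicate 1 (0.80, adjusted p = 0.162) or *in vitro* replicate 2 (1.22, adjusted p = 0.0519). *Slc38a2*, the SNAT2 carrier of small neutral amino acids, was at 50.7 and 40.3 CPM in adult, 21.2 and 22.6 *in vitro* and, in slices, 40.6 and 38.02 after 1 day, 70.2 and 71.6 after 1 week and 53.4 and 41.97 after 3 weeks. It was lower *in vitro* than in adult (−1.06 ± 0.16, adjusted p = 2.48e-04) and than at 3 weeks (−1.12 ± 0.16, adjusted p = 4.30e-04). The 1 week libraries were the highest (0.63 ± 0.19, adjusted p = 0.0296 against adult), a call lost without adult replicate 2 (0.47, adjusted p = 0.145), slice 1 week replicate 1 (0.68, adjusted p = 0.181) or replicate 2 (0.58, adjusted p = 0.105). Its relative *Slc38a1* was at 32.3 to 53.4 CPM in all 10 libraries and passed no test. *Slc43a2*, the LAT4 carrier of branched and aromatic amino acids, was at 94.3 and 89.3 CPM *in vitro* against 49.00 and 26.5 in adult (1.27 ± 0.23, adjusted p = 7.76e-04), with the 2 adult libraries well apart. *Slc38a6* was at 8.35 and 7.21 CPM in adult, 20.2 and 19.98 *in vitro* and, in slices, 13.6 and 12.8 after 1 day, 11.9 and 28.1 after 1 week and 25.2 and 40.6 after 3 weeks, higher than adult *in vitro* (1.36 ± 0.27, adjusted p = 0.00148) and at 3 weeks (2.08 ± 0.27, adjusted p = 2.33e-04).

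Some low genes were picked after their values were seen, namely 3 amino acid carriers and the organic cation carrier *Slc22a15*. *Slc36a2*, a proton-coupled carrier of small amino acids, had 120 and 69 UMIs in adult, 1 and 1 *in vitro* and 3 and 0 at 1 day, so that its level was lower than adult by 295-fold (95% counting interval 80.4 to 2450.4) *in vitro* and 39.8-fold (95% counting interval 13.4 to 195) at 1 day. At 3 weeks *Slc36a2* had 19 and 59 UMIs (2.46 and 2.75 CPM, against 8.79 and 8.89 in adult). At 1 week it had 1 and 3 UMIs (0.988 and 7.68 CPM). *Slc7a13* had 63 and 77 UMIs *in vitro* and 0 and 0 at 3 weeks, at least 20.4-fold higher *in vitro* against a floor of 3 counts over the group. *Slc6a13*, the GABA transporter GAT2, had 0 UMIs in adult and at 3 weeks, 22 and 44 at 1 day and, at 1 week, 11 and 0. Its level was at least 34.8-fold higher at 1 day than in adult, a contrast that follows from the minimum and is a description. The call held without the cells over 2% neutrophil UMIs (adjusted p = 0.00178). At 1 week the call was lost without those cells (adjusted p = 0.126), and all of the 1 week UMIs were in replicate 1. *Slc22a15*, with 2 and 0 UMIs in adult, 20 and 56 at 1 day and 10 and 1 at 1 week, also held at 1 day (adjusted p = 0.00142) and not at 1 week (adjusted p = 0.0724). The part of neutrophil RNA in these values was not tested further.

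Of the 4 tested carriers of lysosomal and vesicular peptides, amines and sialic acid, 3 were lower *in vitro* than in adult and none was higher (all genes 28.5% and 22.4%). *Slc17a9*, the vesicular nucleotide transporter that loads ATP, was at 15.5 and 13.3 CPM in adult, 4.05 and 4.10 *in vitro* and, in slices, 6.29 and 8.76 after 1 day, 1.98 and 5.12 after 1 week and 6.99 and 8.85 after 3 weeks, lower *in vitro* (−1.82 ± 0.24, adjusted p = 1.11e-04). Its lower level at 3 weeks (−0.84 ± 0.24, adjusted p = 0.0183) was not called without adult replicate 1 (−0.67, adjusted p = 0.15). *Slc15a4*, a lysosomal carrier of histidine and dipeptides, was at 84.4 and 55.1 CPM in adult and 34.4 and 35.6 *in vitro* (−1.001 ± 0.20, adjusted p = 0.00138), a call lost without adult replicate 1 (−0.56, adjusted p = 0.0395). *Slc15a3*, its close relative, was at 121 and 139.6 CPM in adult, 89.5 and 80.7 *in vitro* and, in slices, 169 and 155 after 1 day, 128 and 102 after 1 week and 179 and 202 after 3 weeks, and the test separated *in vitro* from slice 3 weeks (−1.16 ± 0.15, adjusted p = 2.68e-04). *In vitro* against adult it gave −0.61 ± 0.15, a call lost without adult replicate 2 (−0.51, adjusted p = 0.0486) or without *in vitro* replicate 1 (−0.57, adjusted p = 0.0532) or 2 (−0.42, adjusted p = 0.146). *Slc17a5*, the lysosomal exporter of sialic acid, was at 21.5 to 43.0 CPM in every library and differed from adult in no comparison at the threshold.

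The Slc16 family holds the lactate carriers MCT1, MCT2 and MCT4. *Slc16a3* (chr11:120948480-120960868, plus strand), the MCT4 carrier that exports lactate from glycolytic cells, was at 54.5 and 64.1 CPM in adult, 33.3 and 42.9 *in vitro* and, in slices, 314 and 300.4 after 1 day, 161 and 76.8 after 1 week and 257 and 241 after 3 weeks. Both 1 day and both 3 weeks libraries were above 240 CPM, and no adult or *in vitro* library reached 65. The fold change against adult was 2.37 ± 0.26, adjusted p = 3.73e-05 at 1 day and 2.07 ± 0.25, adjusted p = 1.54e-04 at 3 weeks, and *in vitro* against slice 3 weeks it was −2.71 ± 0.26, adjusted p = 3.09e-05. The lower value *in vitro* against adult (−0.64 ± 0.25, adjusted p = 0.0471) was just past the fold threshold and was lost without any 1 of the 4 libraries (log2 fold changes −0.71 to −0.35). *Slc16a1* (chr3:104638668-104658462, plus strand), the widely expressed MCT1, was at 6.52 and 9.14 CPM in adult, 3.12 and 3.14 *in vitro* and, in slices, 13.4 and 15.04 after 1 day, 4.94 and 17.9 after 1 week and 15.9 and 15.3 after 3 weeks. It was lower *in vitro* than in adult (−1.30 ± 0.29, adjusted p = 0.00325) and than at 3 weeks (−2.31 ± 0.29, adjusted p = 1.71e-04). Its higher level at 3 weeks against adult (1.01 ± 0.28, adjusted p = 0.0169) was not called without adult replicate 1 (0.82, adjusted p = 0.123). *Slc16a7* (MCT2), named after its values were seen, was at 14.9 and 15.97 CPM in adult, 14.6 and 13.8 *in vitro* and, in slices, 3.41 and 4.74 after 1 day, 4.94 and 20.5 after 1 week and 10.1 and 7.36 after 3 weeks. It was lower at 1 day than in adult (−1.86 ± 0.34, adjusted p = 0.00109), and *in vitro* against slice 3 weeks it gave 0.73 ± 0.29 and was not called. *Slc16a1* at 1 day gave 0.89 ± 0.29, adjusted p = 0.0257, a call lost without adult replicate 1 (0.69, adjusted p = 0.16), slice 1 day replicate 1 (0.96, adjusted p = 0.0516) or slice 1 day replicate 2 (0.85, adjusted p = 0.129).

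The bases before the start of *Slc16a1* and *Slc16a3* are shown because both genes were lower *in vitro* than in slices at 1 day and 3 weeks. RefSeq promoters (GRCm38.p6) were found for 130 of the 170 solute carriers. The sequences are the 250 bases before the RefSeq start, which for *Slc16a3* lies inside the locus given above, at chr3:104638414-104638663 (plus strand) and chr11:120948817-120949066 (plus strand), with matches to any of 5 searched motifs in capitals.
Slc16a1: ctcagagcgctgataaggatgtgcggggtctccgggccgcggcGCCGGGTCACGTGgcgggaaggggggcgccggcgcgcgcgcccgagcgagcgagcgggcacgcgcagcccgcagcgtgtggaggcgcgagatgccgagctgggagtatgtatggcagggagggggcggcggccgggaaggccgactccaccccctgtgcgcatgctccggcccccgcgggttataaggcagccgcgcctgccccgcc
Slc16a3: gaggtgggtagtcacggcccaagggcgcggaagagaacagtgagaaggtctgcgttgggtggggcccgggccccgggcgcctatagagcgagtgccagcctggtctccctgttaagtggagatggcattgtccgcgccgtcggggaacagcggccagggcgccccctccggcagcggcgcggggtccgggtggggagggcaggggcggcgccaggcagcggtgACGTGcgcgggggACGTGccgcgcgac
The motifs, searched on both strands, were CACGTG (an E-box), ACGTG (the core of the hypoxia response element, contained in the E-box), GAGGAAGT (PU.1), TGANTCA (AP-1) and TGACNNNGC (the core of the antioxidant response element). In *Slc16a3* ACGTG lay at bases 27 and 14 before the start. In *Slc16a1* the capitals hold an E-box that starts 200 bases before the start and, overlapping it, a TGACNNNGC match on the other strand. ACGTG was found in 38 of the 130 genes (29.2%) and in 18.5% of all 27025 genes of the table, CACGTG in 25 (19.2%) against 6.86%, TGACNNNGC in 28 (21.5%) against 11.5%, TGANTCA in 10 (7.69%) against 7.82% and GAGGAAGT in 4 (3.08%) against 2.79%. These are matches of letters, and no binding was measured. The genes of the table were not matched to the solute carriers in expression or in the share of G and C bases. That share is 76.4% and 73.6% in the stretches shown for *Slc16a1* and *Slc16a3*.

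*Slc16a6* (MCT7), another member of the family, was at 126 and 137 CPM in adult, 26.2 and 25.5 *in vitro* and, in slices, 42.7 and 45.7 after 1 day, 48.4 and 76.8 after 1 week and 64.9 and 59.6 after 3 weeks. Adult was above all 8 culture libraries, and the fold changes against adult were −2.35 ± 0.17 *in vitro*, −1.57 ± 0.17 at 1 day and −1.08 ± 0.16 at 3 weeks (adjusted p = 1.41e-06, 3.26e-05 and 5.09e-04). *Slc16a10*, the aromatic amino acid carrier TAT1, was higher than adult *in vitro* (1.10 ± 0.17, adjusted p = 2.51e-04) and at 1 day (1.58 ± 0.17, adjusted p = 3.86e-05) and fell from 1 day to 3 weeks (−1.44 ± 0.17, adjusted p = 3.43e-04). Its levels were 12.2 and 11.6 CPM in adult, 25.98 and 25.2 *in vitro* and, in slices, 36.7 and 34.6 after 1 day, 16.8 and 10.2 after 1 week and 11.9 and 14.02 after 3 weeks.

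Of the 4 nucleoside carriers, *Slc29a1* and *Slc29a3* were highest in adult, while *Slc29a2* was at 1.46 and 1.03 CPM there and passed no test. *Slc29a3* (chr10:60712072-60752794, minus strand), the ENT3 carrier that moves nucleosides out of lysosomes, was at 155 and 172 CPM in adult, 36.3 and 31.9 *in vitro* and, in slices, 23.6 and 20.2 after 1 day, 44.5 and 38.4 after 1 week and 49.2 and 83.3 after 3 weeks. No culture library reached the adult level, and within slices both 3 weeks libraries were above both 1 day libraries. The fold changes against adult were −2.26 ± 0.22, adjusted p = 1.31e-05 *in vitro*, −2.91 ± 0.24, adjusted p = 6.42e-06 at 1 day, −1.95 ± 0.27, adjusted p = 4.84e-04 at 1 week and −1.30 ± 0.22, adjusted p = 9.87e-04 at 3 weeks, and from 1 day to 3 weeks the gene rose by 1.62 ± 0.23, adjusted p = 8.97e-04. *In vitro* was below slice 3 weeks (−0.97 ± 0.22, adjusted p = 0.00555), a call lost without *in vitro* replicate 2 (−0.80, adjusted p = 0.0728) or slice 3 weeks replicate 2 (−0.46, adjusted p = 0.0507). *Slc29a1*, the ENT1 carrier of the plasma membrane, was at 155 and 179 CPM in adult, 66.3 and 60.8 *in vitro* and, in slices, 49.01 and 58.01 after 1 day, 68.2 and 94.7 after 1 week and 122 and 102 after 3 weeks, lower than adult *in vitro* (−1.39 ± 0.17, adjusted p = 6.51e-05) and at 1 day (−1.63 ± 0.18, adjusted p = 3.62e-05) and rising from 1 day to 3 weeks (1.06 ± 0.17, adjusted p = 0.00174). At 3 weeks against adult it gave −0.57 ± 0.17 and was not called. *Slc28a2*, the sodium-coupled CNT2 and named after its values were seen, had 0 UMIs in adult and at 3 weeks and 36 and 52 *in vitro*, at least 9.41-fold higher than adult.

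The 5 nucleotide sugar carriers, which bring activated sugars into the Golgi apparatus, held 3 genes called lower *in vitro* than in adult and none called higher (all genes 28.5% and 22.4%). *Slc35a2*, the UDP-galactose carrier, was at 45.04 and 45.7 CPM in adult, 18.3 and 18.4 *in vitro* and, in slices, 31.5 and 24.8 after 1 day, 21.7 and 20.5 after 1 week and 36.9 and 44.9 after 3 weeks, lower *in vitro* than in adult (−1.31 ± 0.15, adjusted p = 4.77e-05) and than at 3 weeks (−1.16 ± 0.15, adjusted p = 2.69e-04). *Slc35a1*, the CMP-sialic acid carrier, was at 38.1 and 35.9 CPM in adult and 10.2 to 25.1 in the 8 culture libraries. It was lower at 1 day (−0.92 ± 0.19, adjusted p = 0.00185) and *in vitro* (−0.88 ± 0.17, adjusted p = 0.00151), the latter not without *in vitro* replicate 2 (−0.68, adjusted p = 0.0503). *Slc35a4* was at 54.2 and 57.8 CPM in adult, 51.3 and 53.1 *in vitro* and 63.4 and 73.4 at 1 day, and passed no test against adult.

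**Figure D4:**
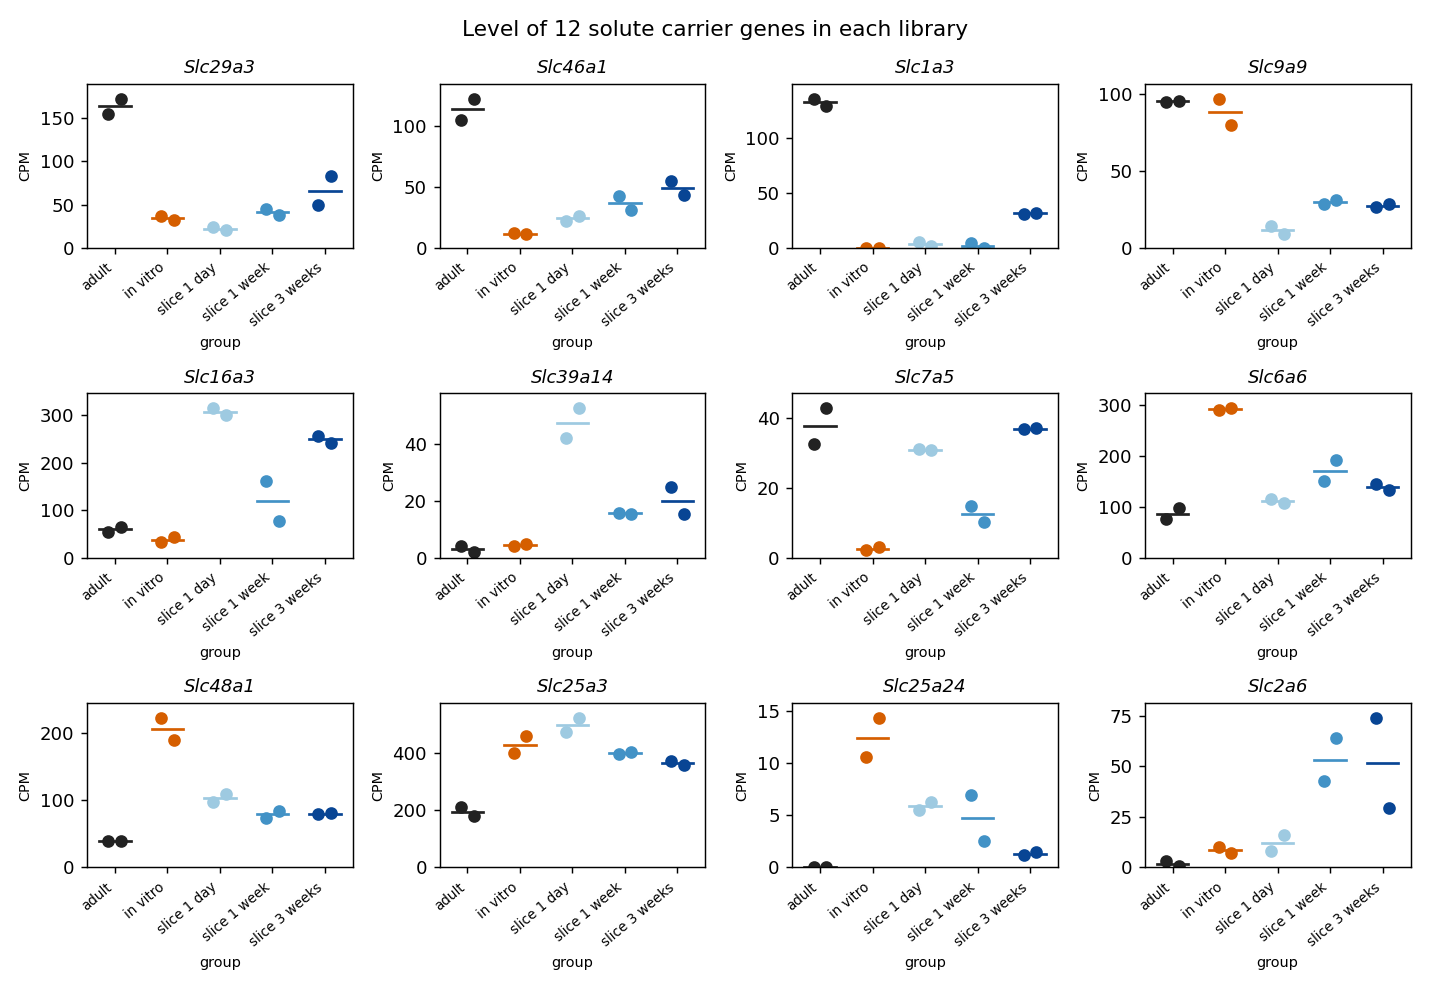
Level in CPM (vertical axis, from 0) of 12 solute carrier genes in each of the 10 libraries by group; points are libraries and bars the mean of 2. *Slc29a3* and *Slc46a1* are highest in both adult libraries, *Slc16a3* and *Slc39a14* are high in slices and low in adult and *in vitro*, *Slc7a5* is near 3 CPM *in vitro*, and *Slc9a9* is near adult *in vitro* and low in slices. For *Slc16a3*, slice 1 week replicate 2 lies near adult, at 76.8 CPM against 54.5 and 64.1.

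Of the 14 tested sugar carriers, 5 were lower and 3 higher *in vitro* than in adult (all genes 28.5% and 22.4%), and 2 were lower and 3 higher at 3 weeks (all genes 17.5% and 18.0%). *Slc2a6*, the GLUT6 hexose carrier of intracellular membranes, was at 3.00 and 0.773 CPM in adult, 9.92 and 7.30 *in vitro* and, in slices, 8.13 and 15.97 after 1 day, 42.5 and 63.97 after 1 week and 73.7 and 29.4 after 3 weeks. All culture libraries were above adult, and slices from 1 week on were the highest. It was higher than adult at 1 week (4.59 ± 0.69, adjusted p = 7.45e-04) and 3 weeks (4.60 ± 0.58, adjusted p = 1.77e-04) and lower *in vitro* than at 3 weeks (−2.56 ± 0.47, adjusted p = 0.00194). *In vitro* it gave 2.04 ± 0.57, adjusted p = 0.0114 against adult, lost without adult replicate 2 (1.51, adjusted p = 0.0705), and at 1 day 2.59 ± 0.60, adjusted p = 0.00422, lost without slice 1 day replicate 2 (2.02, adjusted p = 0.069). *Slc2a8*, the GLUT8 carrier of late endosomes and lysosomes, was at 58.7 and 62.3 CPM in adult, 35.8 and 35.00 *in vitro* and, in slices, 16.3 and 17.3 after 1 day, 39.5 and 30.7 after 1 week and 52.4 and 53.4 after 3 weeks. It was lower *in vitro* (−0.77 ± 0.13, adjusted p = 4.25e-04) and at 1 day (−1.84 ± 0.14, adjusted p = 4.06e-06) than in adult, and the rise from 1 day to 3 weeks was 1.65 ± 0.14, adjusted p = 7.89e-05, after which slices and adult gave −0.19 ± 0.13. *Slc37a4*, the glucose-6-phosphate carrier of the endoplasmic reticulum, was at 10.02 and 10.3 CPM *in vitro* against 18.9 and 17.8 in adult (−0.86 ± 0.17, adjusted p = 0.0013) and 20.7 and 20.1 at 3 weeks (−1.005 ± 0.16, adjusted p = 9.93e-04). *Slc37a2*, its relative, was at 54.6 and 54.1 CPM in adult and not called in any culture against adult, though it fell from 1 day to 3 weeks (−0.66 ± 0.14, adjusted p = 0.00568). *Slc50a1*, a sugar uniporter of the SWEET family named after its values were seen, was at 142 and 139 CPM in adult and 51.7 to 77.4 in all culture libraries. *Slc5a10*, a sodium-coupled sugar carrier named on the same ground, had 96 and 50 UMIs in adult, 0 and 3 at 3 weeks and 0 in the other 6 libraries, at least 152-fold lower *in vitro* and at least 30.7-fold lower at 1 day.

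In the class of vitamin, choline, organic ion and lipid carriers, 10 of 21 tested were lower and 5 higher *in vitro* than in adult (all genes 28.5% and 22.4%), and *in vitro* against slice 3 weeks 12 were lower and none higher (all genes 20.0% and 13.3%). *Slc46a1* (chr11:78465697-78472059, plus strand), the proton-coupled folate transporter that also carries heme, was at 105 and 122 CPM in adult, 11.9 and 11.4 *in vitro* and, in slices, 22.3 and 26.2 after 1 day, 42.5 and 30.7 after 1 week and 54.5 and 43.7 after 3 weeks. The order of the groups did not overlap between adult, slice 3 weeks, slice 1 day and *in vitro*. The fold changes were −3.29 ± 0.17, adjusted p = 2.10e-07 *in vitro* against adult, −2.21 ± 0.17, adjusted p = 4.90e-06 at 1 day, −1.21 ± 0.16, adjusted p = 2.57e-04 at 3 weeks and −2.07 ± 0.17, adjusted p = 1.15e-05 *in vitro* against slice 3 weeks, with a rise of 1.000 ± 0.17, adjusted p = 0.00209 from 1 day to 3 weeks. *Slc46a3*, a lysosomal member of the same family, was at 94.8 and 99.6 CPM in adult, 27.01 and 22.7 *in vitro* and, in slices, 13.1 and 7.11 after 1 day, 28.7 and 38.4 after 1 week and 37.4 and 24.6 after 3 weeks, and was lowest at 1 day (−3.35 ± 0.29, adjusted p = 8.65e-06). *Slc44a2*, a choline transporter-like protein, was at 106 and 98.01 CPM in adult, 13.1 and 12.7 *in vitro* and, in slices, 27.5 and 22.6 after 1 day, 24.7 and 35.8 after 1 week and 50.5 and 41.04 after 3 weeks. It was lower than adult *in vitro* (−2.98 ± 0.17, adjusted p = 3.14e-07) and at 3 weeks (−1.16 ± 0.16, adjusted p = 3.08e-04), and lower *in vitro* than at 3 weeks (−1.82 ± 0.16, adjusted p = 2.09e-05). *Slc44a1*, the choline transporter CTL1, was at 10.2 and 9.40 CPM in adult and 17.98 and 15.8 *in vitro* (0.78 ± 0.19, adjusted p = 0.00482), opposite in direction to *Slc44a2*, though with library size alone this call was lost.

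*Slc22a17*, the receptor for the iron-binding protein lipocalin 2, was at 40.4 and 38.9 CPM in adult, 2.22 and 1.77 *in vitro* and, in slices, 14.4 and 9.79 after 1 day, 28.7 and 28.1 after 1 week and 27.7 and 31.7 after 3 weeks. It was lower *in vitro* than in adult (−4.31 ± 0.22, adjusted p = 1.62e-07) and than in slices at 3 weeks (−3.90 ± 0.21, adjusted p = 8.93e-07), and it rose from 1 day to 3 weeks (1.35 ± 0.20, adjusted p = 0.0012). At 3 weeks the value against adult was −0.41 ± 0.18, under the threshold. *Slc27a1*, the fatty acid transport protein FATP1, was at 8.94 and 9.66 CPM in adult, 35.6 and 49.1 *in vitro* and, in slices, 28.05 and 25.7 after 1 day, 29.6 and 25.6 after 1 week and 37.00 and 22.4 after 3 weeks, and all 8 culture libraries were above adult. Against adult it gave 2.19 ± 0.25, adjusted p = 3.72e-05 *in vitro*, 1.53 ± 0.26, adjusted p = 6.32e-04 at 1 day and 1.66 ± 0.25, adjusted p = 5.70e-04 at 3 weeks.

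Of the 24 metal and heme carriers 8 were lower and 3 higher *in vitro* than in adult (all genes 28.5% and 22.4%), and 2 were lower and 5 higher at 3 weeks (all genes 17.5% and 18.0%). *Slc48a1* (chr15:97778520-97792692, plus strand), the HRG1 carrier that brings heme from the lysosome to the cytosol, was at 38.7 and 39.2 CPM in adult, 222 and 189 *in vitro* and, in slices, 96.7 and 109 after 1 day, 74.1 and 84.4 after 1 week and 79.4 and 80.6 after 3 weeks. *In vitro* was the highest group, above adult (2.40 ± 0.15, adjusted p = 4.90e-07) and above slice 3 weeks (1.36 ± 0.14, adjusted p = 5.33e-05), and slices were above adult at 1 day (1.40 ± 0.14, adjusted p = 2.58e-05), 1 week (1.01 ± 0.16, adjusted p = 0.00122) and 3 weeks (1.04 ± 0.14, adjusted p = 3.01e-04). *Slc39a14*, the ZIP14 carrier of zinc, manganese and iron, was at 3.95 and 2.06 CPM in adult, 4.11 and 4.88 *in vitro* and, in slices, 42.2 and 52.6 after 1 day, 15.8 and 15.4 after 1 week and 24.8 and 15.4 after 3 weeks. It was higher than adult at 1 day (3.92 ± 0.32, adjusted p = 6.57e-06) and 3 weeks (2.65 ± 0.32, adjusted p = 1.33e-04), gave 0.51 ± 0.32 *in vitro*, and was lower *in vitro* than at 3 weeks (−2.14 ± 0.28, adjusted p = 2.63e-04). Its fall from 1 day to 3 weeks (−1.27 ± 0.27, adjusted p = 0.00649) was not called without slice 1 day replicate 2 (−1.08, adjusted p = 0.0746). *Slc31a1*, the copper importer CTR1, was at 44.4 and 55.4 CPM in adult and 90.1 and 80.4 *in vitro* (0.78 ± 0.15, adjusted p = 0.00137), a call lost with library size alone, and *Slc39a1* (ZIP1) was at 51.6 to 97.2 CPM in all libraries, highest at 1 week.

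Low metal carriers named after their values were seen included *Slc39a12* (ZIP12), with 147 and 62 UMIs in adult, 20 and 14 *in vitro*, 1 and 0 at 1 day and 1 and 1 at 3 weeks. Its level was lower than adult by 132-fold (95% counting interval 23.4 to 5236) at 1 day and 142-fold (95% counting interval 38.9 to 1184) at 3 weeks. *Slc41a2*, a magnesium carrier, had 0 UMIs in adult and 97 and 160 *in vitro*, at least 27.5-fold higher. *Slc39a2* (ZIP2), which shares exon bases with *Mettl17* on the same strand so that their reads cannot be told apart there, had 11 and 7 UMIs in adult, 4 and 2 *in vitro* and 26 and 210 at 3 weeks, with 3.00 ± 0.59, adjusted p = 0.00272 at 3 weeks against adult and −6.10 ± 0.68, adjusted p = 9.29e-05 *in vitro* against slice 3 weeks.

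Of the 36 mitochondrial carriers 12 were lower and 7 higher *in vitro* than in adult (all genes 28.5% and 22.4%), 7 lower and 9 higher at 1 day (all genes 25.4% and 24.9%) and 5 lower and 6 higher at 3 weeks (all genes 17.5% and 18.0%). *In vitro* against slice 3 weeks 2 were lower and 5 higher (all genes 20.0% and 13.3%). *Slc25a3*, which imports the phosphate used for ATP synthesis, was at 210.0 and 179.5 CPM in adult, 398 and 459 *in vitro* and, in slices, 473 and 521 after 1 day, 396 and 404 after 1 week and 371 and 357 after 3 weeks. All culture libraries were above adult, with 1.14 ± 0.15, adjusted p = 9.31e-05 *in vitro*, 1.35 ± 0.15, adjusted p = 4.17e-05 at 1 day, 1.04 ± 0.15, adjusted p = 6.40e-04 at 1 week and 0.90 ± 0.15, adjusted p = 8.78e-04 at 3 weeks. The ADP/ATP carriers *Slc25a4* and *Slc25a5* have near-identical relatives and pseudogenes, so their counts are uncertain. *Slc25a5* was at 766 and 936 CPM in adult, 716 and 717 *in vitro* and, in slices, 1112 and 1290.2 after 1 day, 672 and 832 after 1 week and 714 and 602 after 3 weeks and passed no test against adult, while *Slc25a4* was called only at 1 day (0.69 ± 0.14, adjusted p = 0.00242), not with library size alone.

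*Slc25a10*, the dicarboxylate carrier, was at 9.89 and 6.70 CPM in adult, 47.3 and 47.7 *in vitro* and, in slices, 21.8 and 25.8 after 1 day, 26.7 and 15.4 after 1 week and 27.6 and 23.1 after 3 weeks, higher than adult *in vitro* (2.49 ± 0.22, adjusted p = 5.67e-06), at 1 day (1.505 ± 0.22, adjusted p = 2.73e-04) and at 3 weeks (1.58 ± 0.22, adjusted p = 3.20e-04) and higher *in vitro* than at 3 weeks (0.91 ± 0.20, adjusted p = 0.00475). *Slc25a24*, the ATP-magnesium/phosphate carrier, had 0 UMIs in both adult libraries, 330 and 511 *in vitro* and, in slices, 21 and 61 after 1 day, 7 and 1 after 1 week and 9 and 31 after 3 weeks. Its level was at least 89.9-fold higher than adult *in vitro*, at least 43.3-fold at 1 day and at least 9.78-fold at 3 weeks. Its *in vitro* level was above slice 3 weeks (3.21 ± 0.32, adjusted p = 8.10e-05). *Slc25a51*, the importer of NAD+ into mitochondria, was at 26.4 and 26.3 CPM in adult, 63.7 and 60.1 *in vitro* and, in slices, 28.3 and 33.8 after 1 day, 25.7 and 30.7 after 1 week and 24.6 and 26.9 after 3 weeks, higher *in vitro* than in adult (1.23 ± 0.14, adjusted p = 3.30e-05) and than at 3 weeks (1.26 ± 0.14, adjusted p = 7.81e-05), while no slice time was called. *Slc25a20*, the carnitine-acylcarnitine carrier of fatty acid oxidation, was high at 1 day, at 35.9 and 32.1 CPM against 13.9 and 14.2 in adult (1.27 ± 0.16, adjusted p = 8.98e-05), and fell from 1 day to 3 weeks (−1.08 ± 0.16, adjusted p = 9.41e-04). *Slc25a45* was at 133 and 127 CPM in adult, 55.3 and 47.9 *in vitro* and, in slices, 46.1 and 44.9 after 1 day, 55.3 and 58.8 after 1 week and 58.99 and 48.4 after 3 weeks, with adult above every culture library (−1.33 ± 0.14, adjusted p = 2.24e-05 *in vitro*, −1.51 ± 0.15, adjusted p = 1.80e-05 at 1 day, −1.28 ± 0.14, adjusted p = 8.97e-05 at 3 weeks). *Slc25a37* and *Slc25a38*, which erythroid cells use for heme synthesis and which were named after their values were seen, were at 18.1 and 11.1 and at 19.6 and 10.9 CPM in adult replicates 1 and 2, where erythroid markers were at 1680.0 and 0 CPM. In slice 1 day replicates 1 and 2, where those markers were at 3324 and 0.721 CPM, *Slc25a37* was at 7.34 and 8.24 and *Slc25a38* at 16.3 and 16.6 CPM. The part of red cells in these values was not tested.

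Among carriers of inorganic ions, *Slc9a9* (chr9:94669909-95230445, plus strand), a sodium/proton exchanger of recycling endosomes, was at 94.5 and 95.4 CPM in adult, 96.8 and 79.5 *in vitro* and, in slices, 13.9 and 8.76 after 1 day, 28.7 and 30.7 after 1 week and 26.4 and 28.5 after 3 weeks. The *in vitro* libraries spanned the adult range and all 6 slice libraries were below 31 CPM. Slices were lower than adult at 1 day (−3.13 ± 0.21, adjusted p = 2.02e-06), 1 week (−1.69 ± 0.24, adjusted p = 5.74e-04) and 3 weeks (−1.79 ± 0.18, adjusted p = 5.54e-05), *in vitro* was higher than slice 3 weeks (1.68 ± 0.18, adjusted p = 7.18e-05), and *in vitro* against adult gave −0.11 ± 0.17. *Slc26a11*, a sulfate and chloride carrier named after its values were seen, was at 2.64 and 2.96 CPM in adult, 23.1 and 23.7 *in vitro* and, in slices, 1.57 and 2.27 after 1 day, 4.94 and 7.68 after 1 week and 2.72 and 2.79 after 3 weeks. It was higher *in vitro* than in adult (3.07 ± 0.23, adjusted p = 2.10e-06) and than in slices at 3 weeks (3.08 ± 0.23, adjusted p = 5.94e-06). *Slc12a2*, the NKCC1 cotransporter of sodium, potassium and chloride, was at 35.6 and 32.6 CPM in adult, 5.85 and 6.93 *in vitro* and, in slices, 12.6 and 7.83 after 1 day, 6.92 and 7.68 after 1 week and 12.4 and 23.4 after 3 weeks, lower than adult *in vitro* (−2.41 ± 0.29, adjusted p = 5.46e-05) and at 1 day (−1.80 ± 0.31, adjusted p = 7.05e-04) and lower *in vitro* than at 3 weeks (−1.51 ± 0.29, adjusted p = 0.0023). Its call at 3 weeks against adult (−0.90 ± 0.28, adjusted p = 0.0263) was lost without either adult library or slice 3 weeks replicate 1 (log2 fold changes −0.97 to −0.55). *Slc20a1*, the phosphate importer PiT-1, was at 5.42 and 4.51 CPM in adult, 8.09 and 8.31 *in vitro* and, in slices, 12.8 and 14.5 after 1 day, 6.92 and 10.2 after 1 week and 14.2 and 11.9 after 3 weeks, higher than adult at 1 day (1.46 ± 0.22, adjusted p = 3.51e-04) and 3 weeks (1.37 ± 0.22, adjusted p = 7.42e-04). *Slc14a1*, the urea carrier also made by red cells, was at 1.32 and 2.19 CPM in adult, where erythroid markers were at 1680.0 and 0 CPM. It had 63 and 33 UMIs *in vitro* and, in slices, 0 and 1 after 1 day, 8 and 0 after 1 week and 2 and 6 after 3 weeks, and 1 week replicate 1, at 7.91 CPM, was above adult. At 1 day it was lower than adult by 22.1-fold (95% counting interval 3.71 to 897), a call lost without slice 1 day replicate 2 (adjusted p = 0.0805), and at 3 weeks it gave −2.60 ± 0.80, adjusted p = 0.0248, a call lost without any 1 of the 4 libraries (adjusted p 0.0509 to 0.132).

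In the direct comparison of the 2 systems after 3 weeks in culture, *Slc1a3*, *Slc7a5*, *Slc22a17*, *Slc16a3*, *Slc46a1* and *Slc2a6* were higher in slices, and *Slc48a1*, *Slc6a6*, *Slc9a9*, *Slc25a51* and *Slc26a11* were higher *in vitro*. Of the 78 calls, 48 held under every alternative tried.

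**Figure D5:**
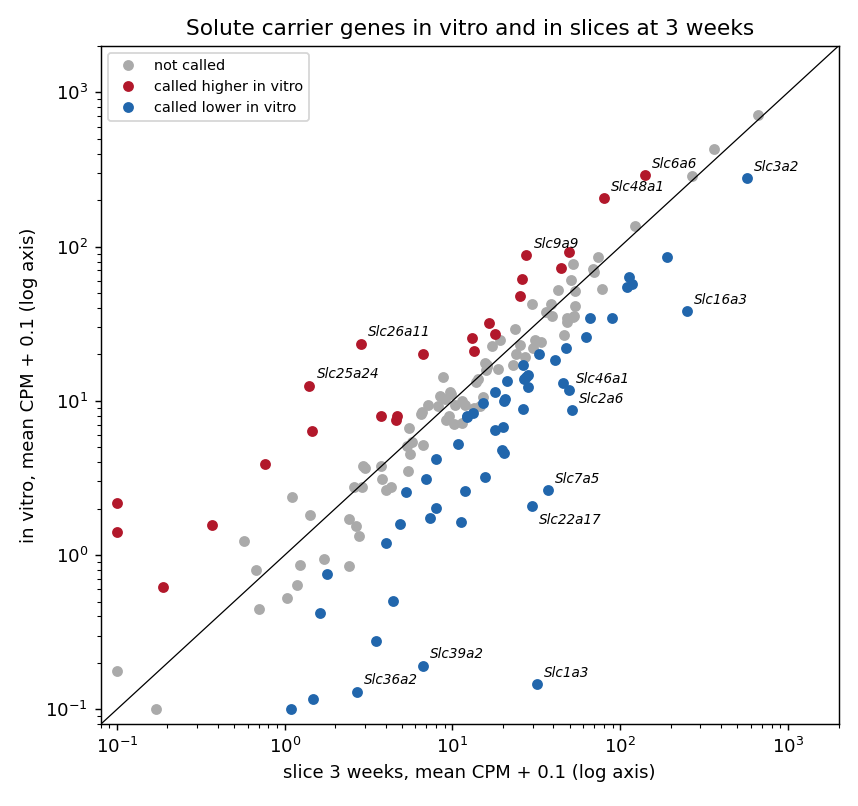
Mean level of the tested solute carriers in slices at 3 weeks (horizontal axis) and *in vitro* (vertical axis), both as CPM + 0.1 on log axes, with the line of equal levels; red genes were called higher *in vitro* (23), blue genes lower (55) and grey genes were not called. *Slc1a3*, *Slc7a5*, *Slc22a17* and *Slc16a3* lie far below the line, and *Slc26a11*, *Slc9a9* and *Slc48a1* above it.

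Over time in slices, the genes that rose from 1 day to 3 weeks included *Slc1a3*, *Slc29a3*, *Slc29a1*, *Slc2a8*, *Slc46a1*, *Slc46a3* and *Slc22a17*, all lower than adult at 1 day, and those that fell included *Slc16a10*, *Slc25a20* and *Slc37a2*. All of these calls held under every alternative tried, as did 15 of the 43 in all. *Slc9a9* also rose (1.34 ± 0.20, adjusted p = 0.00119), and gave 0.90 (adjusted p = 0.0698) without cells holding at least 3 markers of another cell type, a removal that takes 1004 of the 1014 cells of slice 1 day replicate 2. *Slc1a5* fell (−1.46 ± 0.34, adjusted p = 0.0105), but not without slice 1 day replicate 2 (−1.12, adjusted p = 0.123). Neutrophil markers summed to 7265 and 21550 CPM at 1 day and to 3.49 and 1.02 CPM at 3 weeks. Without the cells over 2% neutrophil UMIs 3 of the 43 calls were lost, those of *Slc12a2*, *Slc16a7* and *Slc46a2*, and none was gained. At 1 day against adult 3 of 81 calls were lost without them, those of *Slc5a3*, *Slc9a7* and *Slc39a13*. At 1 week against adult 7 of 53 calls were lost without them, those of *Slc6a13*, *Slc10a3*, *Slc22a15*, *Slc25a29*, *Slc26a2*, *Slc28a2* and *Slc38a2*, and 2 were gained, those of *Slc25a37* and *Slc39a4*. At 1 week against adult 9 of 53 calls held under every alternative, those of *Slc1a3*, *Slc29a3*, *Slc44a2*, *Slc46a1* and *Slc9a9*, which were lower, and of *Slc2a6*, *Slc6a6*, *Slc25a3* and *Slc48a1*, which were higher.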

How the data were processed

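Microglia of 5 groups, 2 libraries each, were profiled by 10x Genomics 3′ v2 single-cell RNA-seq. The authors deposited for every library a table of UMI counts, genes by cells and not normalized, made with Cell Ranger 1.3.0 on mm10 per the submitters' processing notes; the annotation and the use of strand are not given in the sources used here. Rows with a suffixed duplicate symbol were merged. Of 19637 barcodes 19059 were kept, those with at most 5% of UMIs from mitochondrial genes, at least 400 genes and at most 30000 UMIs; doublets were not called. Counts were summed per library, since cells are not replicates, and filtered with filterByExpr at a minimum of 10. A single model over all 10 libraries was fitted with edgeR 4.0.16 (TMM, quasi-likelihood) in R 4.3.3. Genes were called at an adjusted p under 0.05 and a fold over 1.5. Counting intervals are exact 95% intervals and, like the floor of 3 counts over a group, cover counting error only. Separate animals are not labelled, so p-values measure the spread between libraries, which may be technical. Named genes were a list of known carriers of macrophages and mitochondria, the 5 largest rises and falls of each comparison among called solute carriers whose mean log2 CPM reached 4, and the gene with the lowest adjusted p against adult in each transport class; others are marked as named after their values were seen. The members, gene lists and tests were chosen with earlier results of these data known. Alternatives were other scalings, DESeq2 1.42.0, other filters, fewer libraries and a replicate block. In GENCODE vM21, 5 solute carriers share exon bases with another protein-coding gene on the same strand, among them *Slc39a2* and *Slc5a3*, and 22 with one on the other strand, among them *Slc15a3*, *Slc16a6*, *Slc35a4*, *Slc39a13*, *Slc48a1*, *Slc5a10*, *Slc6a9* and *Slc7a7*. Reads in bases shared on the same strand cannot be told apart from those of the neighbour. For bases shared with a gene on the other strand this depends on the use of strand, which is not given.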

Additional observations from a re-analysis of the deposited data

Results flagged for a closer look

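A set of 3 solute carriers differed from adult in opposite directions *in vitro* and in slices at 3 weeks, and the difference between the 2 cultures, which in this model is the difference of those 2 values and so no separate support, was called for each. *Slc16a3* gave −0.64 ± 0.25 *in vitro* and 2.07 ± 0.25 at 3 weeks against adult, with −2.71 between the cultures (log2, adjusted p = 3.09e-05). *Slc16a1* gave −1.30 ± 0.29 and 1.01 ± 0.28, with −2.31 between the cultures (adjusted p = 1.71e-04). *Slc39a2* gave −3.10 ± 0.85 and 3.00 ± 0.59, with −6.10 between the cultures (adjusted p = 9.29e-05), and rests on 4 and 2 UMIs *in vitro*. *Slc39a2* shares exon bases with *Mettl17* on the same strand, so reads of these 2 genes cannot be told apart where they overlap. The *in vitro* side of *Slc16a3* against adult was lost without any 1 of the 4 libraries, and that of *Slc39a2* without adult replicate 1 (−3.10, adjusted p = 0.0557) or *in vitro* replicate 2 (−2.50, adjusted p = 0.0717). The 3 weeks side of *Slc16a1* was lost without adult replicate 1. No cause of these differences was tested.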

How the results depend on the processing

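Of 306 values of named genes, 189 were called, and 122 of these were called under every alternative tried; 67 were lost under at least 1, and none reversed. The replicate numbers did not pair the samples (correlations of same-numbered libraries −0.112 to 0.0941). The fit with a replicate block therefore shares only a number, save in adult and slice 3 weeks, where the number goes with the study label. With the block the solute carriers called higher and lower were, relative to adult, 33 and 64 *in vitro* and, for slices, 31 and 46 after 1 day, 21 and 30 after 1 week and 34 and 27 after 3 weeks. The counts were 23 and 53 for *in vitro* against slice 3 weeks and 24 and 15 for slice 3 weeks against 1 day. Left-out libraries, where a lone library is assumed to vary like the other groups, gave 7 to 19 higher and 15 to 28 lower at 1 week, 16 to 33 lower at 3 weeks (16 without adult replicate 1), 36 to 59 lower *in vitro* against slice 3 weeks (36 without *in vitro* replicate 2), and 14 to 32 higher and 7 to 18 lower for slice 3 weeks against 1 day (14 and 7 without slice 1 day replicate 2). Without cells with at least 3 markers of another cell type, which drops slice 1 week replicate 1 and nearly all of slice 1 day replicate 2, 6 were higher and 8 lower at 1 week, and 12 higher and 6 lower for slice 3 weeks against 1 day. With only the 2 groups compared, 15 were higher in the latter. Shares of all genes called are not given under any of these alternatives. The counts therefore cannot tell a change in the solute carriers from one in all genes. Removing cells over 2% neutrophil UMIs was chosen after seeing the data. Scaling by library size alone put the median log2 fold change of all genes against adult at −0.42 *in vitro*, −0.18 at 1 day, −0.30 at 1 week and −0.24 at 3 weeks, where TMM gave −0.11, −0.06, −0.08 and −0.03. The cause of these changes was not tested. Depth limits the 1 week values most, with 148 and 61 cells.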
